A study of Homo sapiens with 12 samples.

Results

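The genes described here take up, store, release and sense iron, together with the heme oxygenases that free iron from heme. The 9 members were the rows of the deposited table whose symbols are HMOX1, HMOX2, FTH1, FTL, TFRC, SLC11A2, ACO1, IREB2 and NCOA4. All 9 were found among 19824 entries, and all 9 were among the 13628 genes that passed a filter on low values. They were measured in total RNA of the human glioblastoma lines U87 and U373. Each line was kept for 72 h with 1 U/ml BCT-100 or with PBS, in medium with serum, and the labels give both lines as wild-type. BCT-100 is pegylated arginase I, an enzyme that removes arginine from the medium. The groups were U87 with BCT-100, U87 with PBS, U373 with BCT-100 and U373 with PBS, with 3 libraries each.

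Cells take up transferrin-bound iron through the transferrin receptor (TFRC), and SLC11A2 (DMT1) carries ferrous iron across endosomal and plasma membranes. Iron that is not used is stored in ferritin, a shell of FTH1 heavy chains, which oxidise iron, and FTL light chains, and NCOA4 is the receptor that delivers ferritin to autophagy. The heme oxygenases split heme into biliverdin, carbon monoxide and iron. HMOX1 is the inducible form, activated by NRF2 and repressed by BACH1, and HMOX2 is the constitutive form. The iron regulatory proteins IRP1 (ACO1, a cytosolic aconitase when it holds an iron-sulfur cluster) and IRP2 (IREB2) bind stem-loops called iron-responsive elements. Bound in a 5′ UTR, as in the ferritin mRNAs, they block translation, and bound in the 3′ UTR of TFRC they stabilise the mRNA.

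The stem-loops are shown because they separate the ferritin mRNAs, whose control by iron is mainly at translation, from TFRC, whose mRNA level itself is controlled. GENCODE v29 coding transcripts on GRCh38 were searched on the sense strand for the letters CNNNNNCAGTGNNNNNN with all 5 bases before the loop able to pair with the 5 bases after it, G with T pairs included. FTH1 and FTL each held 1 such match in the 5′ UTR, as did 0.158% of 19639 genes searched. TFRC held 4 in the 3′ UTR, where 0.652% of genes had at least 1. SLC11A2 had a looser match with 4 of 5 pairs in the 3′ UTR of 5 of its 11 coding transcripts, a looser pattern that 4.52% of genes had. Single 3′ UTR matches of that looser kind were also present in ACO1 and IREB2, while HMOX1, HMOX2 and NCOA4 had none in their UTRs. Capitals mark the 6-base loop in each run of 29 bases.
FTH1 5′ UTR, minus strand, chr11:61967574-61967602: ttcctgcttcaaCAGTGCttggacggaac
FTL 5′ UTR, plus strand, chr19:48965335-48965363: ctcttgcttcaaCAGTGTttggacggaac
TFRC 3′ UTR, minus strand, chr3:196050979-196051007: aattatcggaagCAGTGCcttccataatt
TFRC 3′ UTR, minus strand, chr3:196050575-196050603: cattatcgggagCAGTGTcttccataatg
TFRC 3′ UTR, minus strand, chr3:196050510-196050538: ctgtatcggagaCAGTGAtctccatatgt
TFRC 3′ UTR, minus strand, chr3:196050463-196050491: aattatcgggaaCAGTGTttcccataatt
SLC11A2 3′ UTR, minus strand, chr12:50988269-50988297: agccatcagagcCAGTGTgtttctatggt

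Levels are the deposited scaled read counts, in which every library was divided by a factor of its own. Depths recovered from the values ran from 18.89 M to 25.92 M reads, and column totals from 22101094 to 23433112. Each change is the difference of mean log2(value + 1), BCT-100 minus PBS, with the standard error (SE) of limma, and a gene was called at a Benjamini-Hochberg adjusted p under 0.05 over all genes tested. The labels do not say whether replicates were separate cultures, so p-values measure only how far these libraries differ from each other, which may be technical variation. In bulk RNA, more RNA per cell cannot be told apart from a change in which cells were present. Of 8 glial and neural stem markers, 5 were called lower and 1 higher with BCT-100 in U87, and 7 lower and 1 higher in U373. Of all genes, 35.7% were called lower in U87 and 35.8% in U373, and 33.6% and 35.6% higher. Levels of the 8 markers summed to between 108214 and 110646 in U87 with BCT-100 and between 223514 and 227647 with PBS, mostly from VIM. In U373 they summed to between 86208 and 86696 with BCT-100 and between 283644 and 294708 with PBS. GFAP, S100B, SOX2 and FABP7 averaged between 0 and 3.58 in either U87 group, so these markers were near absent there. OLIG2 was the marker called higher in both lines. It averaged 108 with BCT-100 and 20.6 with PBS in U87, and 9.8 with BCT-100 and 0 with PBS in U373. Erythroid markers summed to at most 4.55 in any library, with HBB and HBA2 at 0 in every library. Of 6 leukocyte and macrophage markers, AIF1 was at 0 in every library and 2 were tested. CD68, a lysosomal protein that made up most of the sum in each group, fell in both lines (−1.30 in U87 and −1.54 in U373). CD14 rose in U373, with 70.2 scaled counts with BCT-100 and 19.8 with PBS (1.77, adjusted p = 0.000537 by limma), and was not called in U87 (0.75, adjusted p = 0.102). The list summed to between 2418 and 2565 in U87 with BCT-100 and between 5992 and 6114 with PBS, and to between 210 and 233 in U373 with BCT-100 and between 441 and 484 with PBS. Of 4 endothelial markers, 2 were called lower in U87 and 3 in U373, and of 3 tested epithelial markers 1 was called lower in each line, with 0 called higher in either list. These short lists stand beside 35.7% of all genes called lower in U87 and 35.8% in U373. The part of these marker changes in the changes of the iron genes was not tested.

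In U87, 7 of the 9 members were called higher with BCT-100 and 0 lower, against 33.6% of all genes tested called higher and 35.7% called lower. In U373, 5 members were called higher and 4 lower, where the shares of all genes were 35.6% and 35.8%. Calls in either direction were made for 69.3% of all genes in U87 and 71.4% in U373, so a call alone sets no gene apart. Changes of at least 2-fold upward were called in 3 members in U87 (HMOX1, FTH1 and FTL) and 2 in U373 (HMOX1 and FTH1), against 8.17% and 8.33% of all genes. HMOX1 and FTH1 rose at least 2-fold in both lines, as did 3.13% of all genes. The BCT-100 and PBS libraries did not overlap in 7 members in U87, against 73.0% of all genes, and in 9 members in U373, against 74.5%. The median log2 change of the members was 0.39 in each line, beside −0.01 and 0.00 over all genes in U87 and U373. The members were chosen with earlier results of these data known. Counts and medians of members, here and below, therefore only describe them and carry no test of the set.

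**Figure D1:**
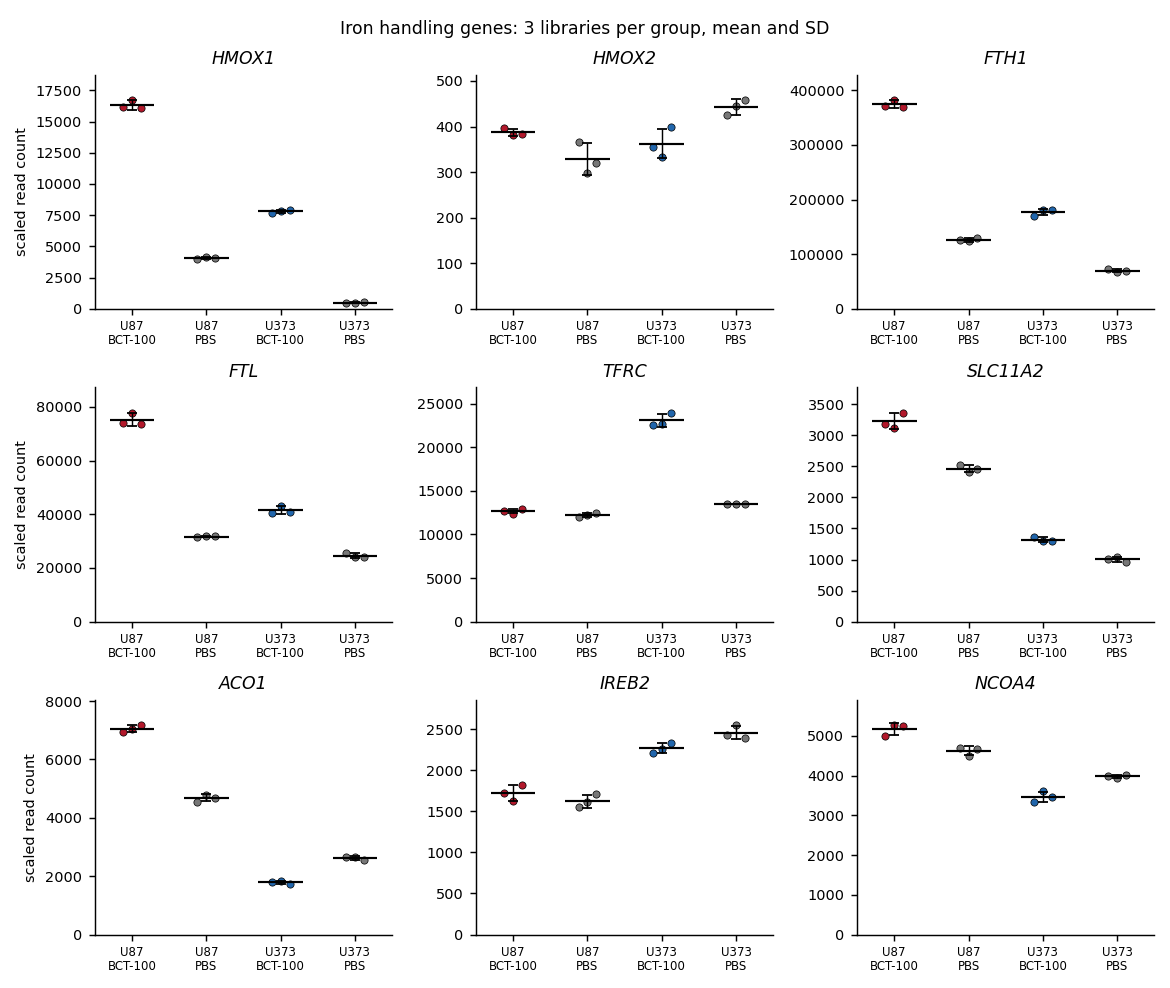
Scaled read counts (y axes, linear from 0) of the 9 genes in each of 12 libraries, grouped by line and treatment on the x axes; points are libraries, long bars are means and whiskers are SDs over 3 libraries. HMOX1, FTH1 and FTL stood higher with BCT-100 than with PBS in both lines, TFRC stood apart in the BCT-100 libraries of U373, and ACO1 moved in opposite directions in the lines.

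HMOX1 (chromosome 22 of GRCh38, as all positions here, 35380361 to 35394214, plus strand) rose with BCT-100 in both lines. In U87 HMOX1 had 16135, 16755 and 16065 scaled counts with BCT-100, against 3972, 4132 and 4046 with PBS. In U373 HMOX1 had 7668, 7843 and 7932 with BCT-100, against 471, 494 and 532 with PBS. The groups did not overlap in either line, and the lowest BCT-100 library of U373 stood above the highest PBS library of U87. HMOX1 had a log2 change of 2.01 in U87 (SE 0.04, adjusted p = 5e-20 by limma), a 4.03-fold rise that ranked 319 among the 13628 changes ordered from the highest. In U373 the log2 change was 3.97 (SE 0.04, adjusted p = 1.49e-24 by limma), a 15.6-fold rise that ranked 33 in the same order. The response was smaller in U87 than in U373 by 1.96 on the log2 scale (difference −1.96, SE 0.05, adjusted p = 1.55e-16). The level itself remained higher in U87, by 1.06 with BCT-100 and by 3.02 with PBS on the log2 scale (SE 0.04 each), so the gap between the lines was narrower with the enzyme.

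HMOX2, the constitutive isoenzyme (chromosome 16, 4474690 to 4510347, plus strand), moved little. In U87 HMOX2 had 396, 382 and 384 scaled counts with BCT-100, against 367, 299 and 319 with PBS. In U373 HMOX2 had 356, 334 and 398 with BCT-100, against 425, 444 and 459 with PBS. The groups did not overlap within a line, but in U87 their means lay closer together than the lowest and highest PBS library. The log2 changes were 0.24 in U87 (SE 0.09, adjusted p = 0.0173) and −0.29 in U373 (SE 0.09, adjusted p = 0.00508), both by limma, and the responses differed by 0.53 (SE 0.12, adjusted p = 0.000905). The call in U87 was lost without the PBS library 2 (0.18, adjusted p = 0.0983), without PBS library 3 (0.22, adjusted p = 0.0517), without BCT-100 library 1 (0.23, adjusted p = 0.0511) and with libraries scaled to equal totals (0.19, adjusted p = 0.0558). Exons of HMOX2 share 228 bases with NMRAL1 on the other strand, which averaged between 3 and 81.9 scaled counts in the groups.

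Per kilobase of its principal transcript, HMOX1 was the more abundant heme oxygenase mRNA in every group. Its level was 8956 ± 209 scaled counts per kilobase in U87 with BCT-100 and 2223 ± 43.9 with PBS, where HMOX2 had 180 ± 3.56 and 153 ± 16.2. In U373 HMOX1 had 4289 ± 73.9 with BCT-100 and 274 ± 16.8 with PBS, and HMOX2 had 169 ± 15.3 and 206 ± 7.85 (SD, n = 3 for all). The pair was therefore nearest in level in U373 with PBS.

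FTH1, the ferritin heavy chain (chromosome 11, 61959718 to 61967660, minus strand), rose with BCT-100 in both lines from a high level. In U87 FTH1 had 372038, 382937 and 370263 scaled counts with BCT-100, against 125402, 123256 and 129243 with PBS. In U373 FTH1 had 170182, 180922 and 180019 with BCT-100, against 72947, 67224 and 69197 with PBS. The groups did not overlap, and all 4 groups stood apart from each other. FTH1 had a log2 change of 1.57 in U87 (SE 0.03, adjusted p = 2.48e-18) and 1.34 in U373 (SE 0.03, adjusted p = 2.37e-17), both by limma. The response was larger in U87 by 0.23 (SE 0.04, adjusted p = 0.000115).

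FTL, the light chain (chromosome 19, 48965301 to 48966878, plus strand), rose with BCT-100 in both lines as well. In U87 FTL had 74155, 77921 and 73798 scaled counts with BCT-100, against 31402, 31803 and 31837 with PBS. In U373 FTL had 40448, 43103 and 40915 with BCT-100, against 25547, 24152 and 24098 with PBS. Again no group overlapped its neighbour. FTL had a log2 change of 1.25 in U87 (SE 0.03, adjusted p = 9.4e-19) and 0.75 in U373 (SE 0.03, adjusted p = 3.1e-15), both by limma, a difference of 0.49 between the lines (SE 0.04, adjusted p = 2.15e-09).

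Together the ferritin mRNAs made up 1.93% ± 0.0393 of the column total in U87 with BCT-100 and 0.698% ± 0.0139 with PBS. In U373 they made up 0.965% ± 0.0168 with BCT-100 and 0.424% ± 0.014 with PBS (SD, n = 3 for each). Per kilobase of transcript FTH1 stood above FTL in every group, at 305191 ± 5584 and 85754 ± 2602 scaled counts in U87 with BCT-100, and at 56786 ± 2365 and 28017 ± 935 in U373 with PBS. The annotation holds 25 pseudogenes whose symbols start with FTH1P and 16 that start with FTLP, and the table lists 0 of them. How reads that fit both a ferritin gene and such a copy were divided is not given in the sources used here. FTH1 exons also share 1267 bases with BEST1 on the other strand. BEST1 had 4027 ± 544 scaled counts in U87 with BCT-100 and 1241 ± 202 with PBS, and 1259 ± 115 in U373 with BCT-100 and 485 ± 100 with PBS, a small part of the FTH1 level in each group. Whether the libraries kept strand is not given in the sources used here, and the part of FTH1 reads in BEST1 was not tested. The mitochondrial ferritin FTMT and the FTH1-like FTHL17 were listed at 0 in every library.

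NCOA4, the receptor for ferritin breakdown (chromosome 10, 46005088 to 46030714, minus strand), moved in opposite directions in the lines by small amounts. In U87 NCOA4 had 5002, 5266 and 5248 scaled counts with BCT-100, against 4696, 4496 and 4683 with PBS. In U373 NCOA4 had 3347, 3606 and 3455 with BCT-100, against 4000, 3938 and 4013 with PBS. The groups did not overlap in either line. NCOA4 had a log2 change of 0.16 in U87 (SE 0.03, adjusted p = 0.00025) and −0.20 in U373 (SE 0.03, adjusted p = 2.08e-05), both by limma, and the responses differed by 0.36 (SE 0.05, adjusted p = 1.93e-06).

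TFRC, the transferrin receptor (chromosome 3, 196027183 to 196082189, minus strand), rose with BCT-100 in U373 and was not called in U87. In U87 TFRC had 12739, 12370 and 12913 scaled counts with BCT-100, against 12016, 12238 and 12466 with PBS. In U373 TFRC had 22535, 22689 and 23969 with BCT-100, against 13517, 13494 and 13501 with PBS. The U87 groups overlapped, whereas the U373 groups were far apart. TFRC had a log2 change of 0.05 in U87 (SE 0.03, adjusted p = 0.107) and 0.77 in U373 (SE 0.03, adjusted p = 1.06e-15), both by limma, and in U87 it was called with median-of-ratios scaling alone among the scalings tried (0.07, adjusted p = 0.0274). The difference of the responses, U87 minus U373, was −0.72 (SE 0.04, adjusted p = 3.75e-12). Between the lines, U87 minus U373, the log2 difference was −0.86 with BCT-100 and −0.14 with PBS (SE 0.03 each).

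SLC11A2, the ferrous iron transporter (chromosome 12, 50979401 to 51028566, minus strand), rose in both lines. In U87 SLC11A2 had 3180, 3120 and 3365 scaled counts with BCT-100, against 2526, 2405 and 2460 with PBS. In U373 SLC11A2 had 1368, 1294 and 1298 with BCT-100, against 1010, 1046 and 963 with PBS. Every BCT-100 library stood above every PBS library of its line, and every U87 library above every U373 library. SLC11A2 had a log2 change of 0.39 in each line (SE 0.04, adjusted p = 9.35e-08 in U87 and 6.81e-08 in U373 by limma). The difference of the responses was −0.01 (SE 0.06, adjusted p = 0.951), the only one among the 9 members that was not called. The table has 1 value per gene, so the transcripts with and without the stem-loop match were not separated.

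**Figure D2:**
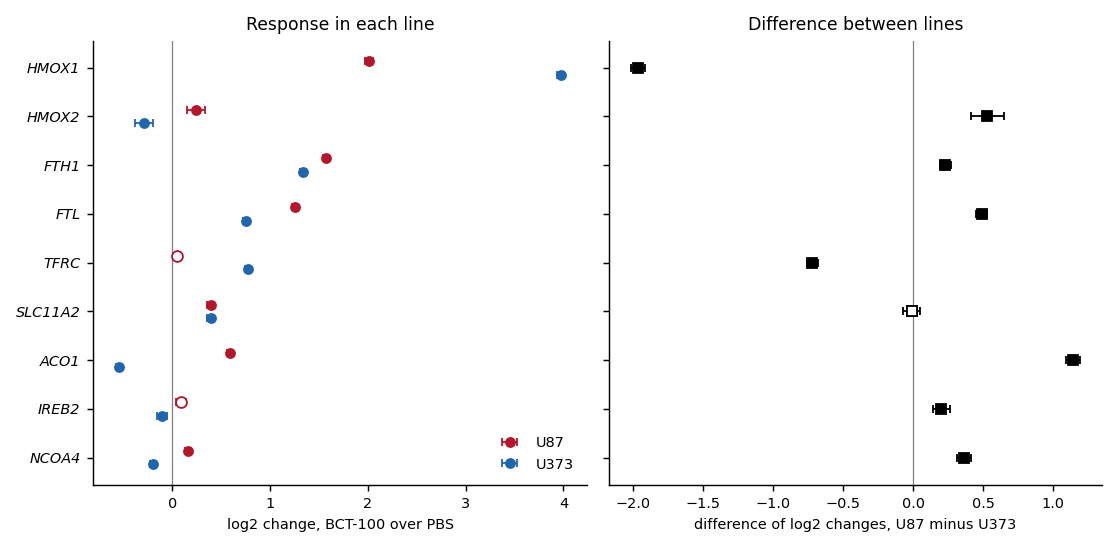
Left, log2 change of BCT-100 over PBS (x axis) for each gene in U87 and U373; right, the difference of these changes, U87 minus U373. Points are estimates of the limma fit, whiskers are standard errors and open symbols were not called. HMOX1 has the largest change of the 9 in both lines, 2.01 in U87 and 3.97 in U373, and ACO1, HMOX2 and NCOA4 were called on opposite sides of 0 in the lines, and IREB2 lies on opposite sides too but was called in U373 alone.

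ACO1, the mRNA of IRP1 and cytosolic aconitase (chromosome 9, 32384603 to 32454769, plus strand), rose in U87 and fell in U373. In U87 ACO1 had 6929, 7057 and 7167 scaled counts with BCT-100, against 4555, 4795 and 4688 with PBS. In U373 ACO1 had 1802, 1837 and 1727 with BCT-100, against 2662, 2640 and 2553 with PBS. All 4 groups stood apart from each other. ACO1 had a log2 change of 0.59 in U87 (SE 0.03, adjusted p = 2.62e-12) and −0.55 in U373 (SE 0.03, adjusted p = 7.06e-12), both by limma. The responses differed by 1.14 (SE 0.05, adjusted p = 8.28e-14), and the lines were 3.94-fold apart with BCT-100 and 1.79-fold apart with PBS, with U87 the higher each time.

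IREB2, the mRNA of IRP2 (chromosome 15, 78437431 to 78501456, plus strand), changed little. In U87 IREB2 had 1723, 1629 and 1816 scaled counts with BCT-100, against 1547, 1610 and 1705 with PBS. In U373 IREB2 had 2214, 2260 and 2328 with BCT-100, against 2429, 2545 and 2392 with PBS. The groups overlapped in U87 and not in U373. IREB2 had a log2 change of 0.09 in U87 (SE 0.05, adjusted p = 0.0946) and −0.11 in U373 (SE 0.05, adjusted p = 0.0303), both by limma. In both lines the call depended on single libraries. In U373 the call was lost without BCT-100 library 1 (adjusted p = 0.101), BCT-100 library 2 (adjusted p = 0.0651) or PBS library 2 (adjusted p = 0.13). In U87 IREB2 was called with median-of-ratios scaling (0.10, adjusted p = 0.0493), without BCT-100 library 2 (0.13, adjusted p = 0.0251) and without PBS library 3 (0.12, adjusted p = 0.0307). The difference of the responses was 0.20 (SE 0.06, adjusted p = 0.0114).

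Of the 9 members, 3 (ACO1, HMOX2 and NCOA4) were called in opposite directions in the lines, against 9.53% of all genes. The response differed between the lines in 8 of 9 members, against 56.8% of all genes, with 6 larger or more positive in U87 (26.1% of all genes) and 2, HMOX1 and TFRC, larger in U373 (30.7% of all genes). The U87 and U373 responses share no samples.

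Ratios of members within a library do not depend on how libraries are scaled, and they were compared in each line by an exact two-sided permutation test. With 3 against 3 libraries that test cannot go below p = 0.1, and all 8 exact tests gave p = 0.1 (adjusted p = 0.1 over the 8), because no BCT-100 library overlapped a PBS library in any of them. The ratios are of scaled counts without a correction for length, so they compare groups and not the genes themselves. FTH1 over FTL was 4.98 ± 0.0593 in U87 with BCT-100 and 3.98 ± 0.0932 with PBS, and 4.27 ± 0.114 in U373 with BCT-100 and 2.84 ± 0.0469 with PBS (SD, n = 3 each). The heavy chain mRNA thus gained on the light chain mRNA in both lines, by 0.33 in U87 and 0.59 in U373 on the log2 scale. HMOX1 over HMOX2 was 42.2 ± 1.6 in U87 with BCT-100 and 12.4 ± 1.5 with PBS, and 21.7 ± 1.8 in U373 with BCT-100 and 1.13 ± 0.0276 with PBS.

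The balance of the iron regulatory proteins at the mRNA level went opposite ways. ACO1 over IREB2 was 4.1 ± 0.205 in U87 with BCT-100 and 2.89 ± 0.123 with PBS, but 0.789 ± 0.0412 in U373 with BCT-100 and 1.07 ± 0.0293 with PBS (SD, n = 3 each). Per kilobase of principal transcript, ACO1 stood above IREB2 in U87, at 944 ± 15.9 and 271 ± 14.8 with BCT-100. In U373 with BCT-100 it stood below on that scale, at 240 ± 7.49 for ACO1 and 357 ± 9.06 for IREB2. With all annotated exons as the length, that order turned to 237 for ACO1 and 210 for IREB2, so it rests on the transcript assumed. TFRC over FTH1, receptor against store, was 0.0338 ± 0.00134 in U87 with BCT-100 and 0.0972 ± 0.00185 with PBS. In U373 the same ratio was 0.13 ± 0.00427 with BCT-100 and 0.194 ± 0.00781 with PBS. The ratio was lower with BCT-100 in both lines, with log2 differences of −1.52 in U87 and −0.57 in U373, although TFRC itself rose in U373.

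**Figure D3:**
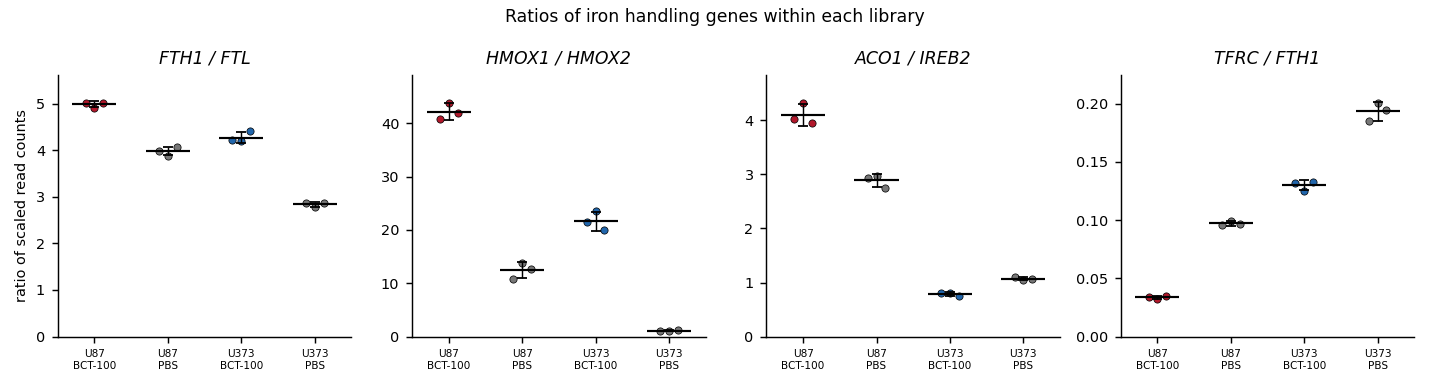
Ratio of the scaled read counts of gene pairs within each library (y axes, linear from 0), by line and treatment (x axes); points are libraries, long bars are means and whiskers are SDs over 3 libraries. FTH1 over FTL and HMOX1 over HMOX2 were higher with BCT-100 in both lines, TFRC over FTH1 was lower in both, and ACO1 over IREB2 was higher in U87 and lower in U373.

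Between the lines with PBS, 9 of 9 members were called, against 83.1% of all genes, with 6 higher in U87 (43.0% of all genes) and 3 lower (40.1%). HMOX1 differed the most, at 8.11-fold higher in U87, followed by SLC11A2 at 2.45-fold. FTH1, ACO1, FTL and NCOA4 were also higher in U87, by 1.81-fold, 1.79-fold, 1.29-fold and 1.16-fold. IREB2, HMOX2 and TFRC were lower in U87, with log2 differences of −0.60, −0.43 and −0.14. With BCT-100, 8 of 9 were called, against 84.3% of all genes, with 6 higher (42.0%) and 2 lower in U87 (42.4%), and HMOX2 was the exception (0.10, SE 0.09, adjusted p = 0.297 by limma).

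The order of the 4 groups was the same for HMOX1, FTH1 and FTL, from U87 with BCT-100 through U373 with BCT-100 and U87 with PBS to U373 with PBS, and no neighbours in that order overlapped. SLC11A2 ordered by line instead, with both U87 groups above both U373 groups. ACO1 and NCOA4 had another common order, namely U87 with BCT-100, U87 with PBS, U373 with PBS and U373 with BCT-100. For IREB2 the U87 groups, and for TFRC the U87 groups, overlapped as neighbours. For HMOX2 the BCT-100 groups of the lines overlapped, as did U373 with BCT-100 and U87 with PBS.

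Across the 12 libraries, which fall into 4 groups, the log2 levels of FTH1 and FTL had a Pearson r of 0.99, and HMOX1 had 0.94 with FTH1 and 0.89 with FTL. ACO1 and NCOA4 also had 0.99, and SLC11A2 and IREB2 had −0.92. Among all other tested genes, those most like HMOX1 were AIMP1 (r = 0.9982), a scaffold protein of the tRNA synthetase complex, and the synthetase genes NARS (0.9982) and CARS (0.9977). The genes most like FTH1 were TP53BP2 (0.9976), IGF2R (0.9973) and the stress response gene DDIT3 (0.9967), and those most like TFRC were FRMD6 (0.9953), CALML4 (0.9952) and TET3 (0.9952). These r values describe 4 group levels shared by many genes, do not compare the sizes of changes and carry no test. AIMP1, NARS and CARS rose by 0.55, 0.90 and 1.08 in U87 and by 1.00, 1.55 and 1.99 in U373 on the log2 scale. HMOX1 rose by 2.01 and 3.97.

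Of 56 other iron and heme genes listed, 51 were tested. In U87, 25 were called higher and 17 lower, or 82.4% called against 69.3% of all genes. In U373, 24 were called higher and 13 lower, or 72.5% called against 71.4% of all genes. The genes that control HMOX1 transcription are described before the other lists because of their outcome. All 6 were called higher in both lines, against 33.6% of all genes in U87 and 35.6% in U373. Their median log2 change was 0.93 in U87 and 0.86 in U373. As all lists were chosen with earlier results of these data known, these counts are descriptions and carry no test.

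MAFF, a small MAF partner of NRF2 and BACH1, rose by 2.87 in U87 and 2.49 in U373 on the log2 scale (SE 0.09 each). It averaged 4406 ± 227 scaled counts in U87 with BCT-100 and 601 ± 46.1 with PBS, and 448 ± 39.9 in U373 with BCT-100 and 79.1 ± 8.86 with PBS. MAFG rose by 1.18 and 1.35 (SE 0.04 each) and MAFK by 0.52 and 0.66 (SE 0.07 each) in U87 and U373. NFE2L2, which encodes the activator NRF2, rose by 0.98 and 0.94 (SE 0.04 each), and the repressor BACH1 rose along with it, by 0.88 and 0.79 (SE 0.05 each). KEAP1, which targets NRF2 for breakdown, rose by 0.13 and 0.29 (SE 0.04 each). The response, U87 minus U373, differed by 0.39 for MAFF (adjusted p = 0.0101), −0.17 for MAFG (adjusted p = 0.0203) and −0.16 for KEAP1 (adjusted p = 0.0248), all by limma. For NFE2L2, BACH1 and MAFK the difference was not called (0.05, 0.09 and −0.14, adjusted p = 0.502, 0.308 and 0.229). The part of these 6 genes in the larger HMOX1 response of U373 was not tested.

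All 6 other NRF2 target genes rose in both lines too, where 33.6% of all genes were called higher in U87 and 35.6% in U373. Their medians were 0.77 in U87 and 0.71 in U373. This list too was chosen with earlier results known, so the count only describes it. TXNRD1, thioredoxin reductase, rose by 1.28 and 1.56 (SE 0.04 each) in U87 and U373. NQO1, a quinone reductase, rose by 1.08 in U87 and 0.35 in U373 (SE 0.04 each), and GCLC, of glutathione synthesis, by 0.92 and 0.79 (SE 0.06 each). None of the 6 rose as far as HMOX1 in either line.

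Of the 6 tested genes of iron uptake and trafficking, 3 were called higher and 2 lower in U87, against 33.6% and 35.7% of all genes, and 4 higher and 1 lower in U373, against 35.6% and 35.8%. SLC39A14, a transporter of non-transferrin-bound iron, averaged 14935 ± 440 scaled counts in U87 with BCT-100 and 6594 ± 195 with PBS, a log2 change of 1.18 (SE 0.03). In U373 it averaged 7113 ± 235 with BCT-100 and 2760 ± 40.5 with PBS, a log2 change of 1.36 (SE 0.03). STEAP3, the endosomal reductase that prepares iron for SLC11A2, split the lines. It fell to 2687 ± 16.3 in U87 with BCT-100, against 5069 ± 70.6 with PBS (−0.92, SE 0.04), and rose to 1481 ± 10.3 in U373 with BCT-100, against 758 ± 23.4 with PBS (0.96, SE 0.04). The difference of these responses was −1.88 (adjusted p = 1.22e-16 by limma), in the same direction as that of TFRC. Of 3 tested genes of iron export, 1 was called lower and 2 were not called in each line, so too few were tested to set against those shares. The ferroportin gene SLC40A1 was at 0 in every U87 library and averaged 37.9 ± 3.57 in U373 with BCT-100 and 56.4 ± 11.2 with PBS (log2 change −0.55, adjusted p = 0.237). HEPH, the ferroxidase hephaestin, fell in U373 (log2 change −1.15, SE 0.23), and in U87 it fell as well at a low level (−0.96, SE 0.23), at 6.12 ± 2.92 with BCT-100 and 12.3 ± 2.52 with PBS. CP, ceruloplasmin, was not called in either line (0.50 in U87 and 0.24 in U373, SE 0.44 each).

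Of 4 tested genes that serve ferritin and IRP2, 2 were called higher and 2 lower in U87, against 33.6% and 35.7% of all genes, and 2 higher and 1 lower in U373, against 35.6% and 35.8%. FBXL5, the iron-sensing ubiquitin ligase subunit that removes IRP2, fell in both lines, with 791 ± 16.6 scaled counts in U87 with BCT-100 and 1219 ± 72.1 with PBS, and 770 ± 11.5 in U373 with BCT-100 and 1407 ± 63.6 with PBS. Its log2 changes were −0.62 in U87 and −0.87 in U373 (SE 0.05 each). The chaperones PCBP1 and PCBP2, which load iron into ferritin, rose by 0.43 and 0.19 in U87 and by 0.36 and 0.30 in U373.

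Heme synthesis genes were mostly lower, with 6 of 8 called lower and 2 higher in U87, and 5 lower, 1 higher and 2 not called in U373. The shares of all genes called lower were 35.7% and 35.8%. ALAD changed by −1.25 in U87 and −0.91 in U373 (SE 0.07 each), CPOX by −0.74 and −0.29 (SE 0.05 each) and UROD by −0.45 and −0.71 (SE 0.05 each). The genes called higher were FECH in both lines (0.43 in U87 and 0.49 in U373, SE 0.07 each) and ALAS1 in U87 alone. ALAS1 changed by 0.57 in U87 and 0.10 in U373 (SE 0.05 each). Of 8 genes of heme transport and bilirubin formation, 3 were called higher and 3 lower in U87, and 2 higher and 3 lower in U373, where 33.6% and 35.6% of all genes were called higher in U87 and U373. BLVRB, a biliverdin reductase, rose by 0.96 in U87 and 0.99 in U373 (SE 0.06 each). BLVRA, the other biliverdin reductase listed, was not called in U87 (−0.11, SE 0.06, adjusted p = 0.109 by limma). In U373 BLVRA rose by 0.24 (SE 0.06). SLC48A1, which carries heme out of lysosomes, rose by 1.28 in U87 and fell in U373 (−0.74, SE 0.09 each), a difference of 2.02 (adjusted p = 2.09e-11 by limma). ABCB6, a porphyrin transporter, changed by −0.35 in U87 and −1.68 in U373 (SE 0.10 each).

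Of 10 mitochondrial iron and iron-sulfur cluster genes, 3 were called higher, 3 lower and 4 not called in U87, and 3 higher, 2 lower and 5 not called in U373. The shares in U87 were close to those of all genes, 33.6% higher and 35.7% lower. In U373 35.6% of all genes were called higher and 35.8% lower, or 71.4% in either direction. SLC25A37, mitoferrin 1, which imports iron into mitochondria, rose by 1.07 and 1.14 (SE 0.04 each), and ISCU, the cluster scaffold, by 1.14 and 0.66 (SE 0.05 each).

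**Figure D4:**
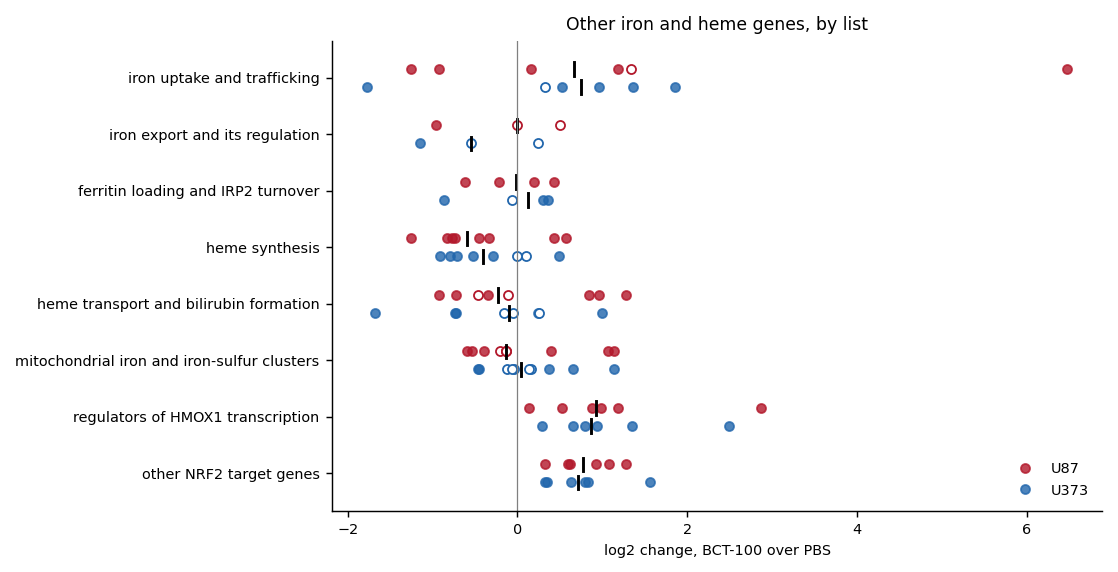
Log2 change of BCT-100 over PBS (x axis) for 51 other tested iron and heme genes, in rows by list, with U87 above U373 in each row; each point is a gene, filled where called and open where not, and short black bars are list medians. All 6 regulators of HMOX1 transcription and all 6 other NRF2 targets lie above 0 in both lines, while most heme synthesis genes lie below 0, and the point at 6.48 in U87 is LCN2, singled out after its values were seen.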

How the data were processed

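Total RNA of 12 libraries was sequenced after Trizol extraction, per the labels' protocols, and groups were taken from the treatment label, since the protocol text names PBS for every sample. STAR, RSEM and hg38 are listed in the submitters' processing notes, and versions are not given in the sources used here. The authors deposited 1 table of gene-level signal, taken as read counts divided by 1 factor per library. That reading comes from the values, of which 85.5% to 86.9% of those above 0 in a library came out whole within 0.001 reads, so no count model was used. Of 19844 entries, 20 exact repeats were dropped.

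Genes that reached 10 in 3 or more libraries were fitted with limma 3.58.1 (R 4.3.3) on log2(value + 1), with 4 group means over all 12 libraries, 8 residual degrees of freedom, an intensity trend and robust variance. The log2 scale with a pseudocount understates changes of low genes. Ratios were tested with scipy 1.17.1 (Python 3.11.15). The fit was also run on simulated counts with the same dispersion for all genes and changes planted in a small part of them in U87. That setting is simpler than these data, and no result here rests on it. Transcript lengths, overlaps and stem-loops came from GENCODE v29. Named genes were all members, the 2 genes of each list with the smallest p in each line, and all 6 HMOX1 regulators. The 3 genes with the highest Pearson r to HMOX1, FTH1 and TFRC were named too. BLVRA, ALAS1 and FECH were added after their values were seen. Members and lists were chosen with earlier results of these data known. Alternatives were other scalings, pseudocounts, filters, voom weights, the compared groups alone, a replicate block, a fold threshold and leaving out each library.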

Additional observations from a re-analysis of the deposited data

Results flagged for a closer look

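The response to BCT-100 differed between the lines in 8 of the 9 genes by limma's test of the difference, U87 minus U373, at an adjusted p under 0.05 over all genes. On the log2 scale the difference was −1.96 for HMOX1, −0.72 for TFRC, 1.14 for ACO1, 0.53 for HMOX2, 0.49 for FTL, 0.36 for NCOA4, 0.23 for FTH1 and 0.20 for IREB2. All 3 U87 and all 3 U373 BCT-100 libraries stood above their PBS libraries for HMOX1, FTH1 and FTL. For ACO1, HMOX2 and NCOA4 all 3 BCT-100 libraries stood above their PBS libraries in U87 and below them in U373. A difference of the responses was called for 56.8% of all genes tested. The BCT-100 and PBS libraries did not overlap for 73.0% of all genes in U87 and 74.5% in U373, so separation alone sets no gene apart.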

How the results depend on the processing

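Of 810 recomputed changes of the 9 genes, 771 kept their direction and their side of the threshold, 28 were no longer called, 4 became called and 7 changed sign. All 7 sign changes were of the SLC11A2 difference between the lines, never called, which was 0.02 with median-of-ratios and with upper-quartile scaling and ran from −0.04 to 0.03 when single libraries were left out. Tested with limma's treat against a fold of 1.5, 3 genes were called in U87, 4 in U373, 3 for the difference of responses, 4 between the lines with PBS and 6 with BCT-100. All genes called under that threshold numbered 2768, 3179, 1747, 5846 and 6086 in that order, against 9450, 9724, 7740, 11325 and 11493 without it. The fewer calls follow from the stricter hypothesis. In U87 the genes called numbered 6 with equal totals and 9 with median-of-ratios scaling, and 6 to 8 when single libraries were left out (8 to 9 in U373). Same-numbered BCT-100 and PBS libraries of a line did not deviate together (r from −0.07 to 0.02). Differently numbered ones gave r from −0.07 to 0.08. No pairing was detected, but a shared effect that is small beside the noise of single libraries could be missed. With the replicate number as a block, 7 genes were called in U87, 9 in U373 and 8 for the difference. The exact sign-flip test of the ratios in pairs gave p = 0.25, the smallest that 3 pairs allow. The 8 ratio differences otherwise kept their sign in every setting run.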
